A study of Mus musculus with 13 samples.

Results

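The 6 genes described here, Chaf1a, Chaf1b, Asf1a, Asf1b, Nasp and Hira, encode chaperones that carry histones H3 and H4 and place them on DNA. They were chosen by name, and every peak that overlapped the mm10 span of a gene or the 10 kb on either side of it was taken from each of the 12 deposited peak lists. This gave 232 of the 563452 peaks in all lists. Peaks of different libraries that overlapped by at least 1 bp were merged into one site, which gave 44 of 114651 sites.

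The lists come from chromatin immunoprecipitation followed by sequencing in NU1 cells, an established mouse urothelial line that became immortal spontaneously and carries no engineered change according to the labels. Chromatin of proliferating or quiescent cells was precipitated with an antibody against STAG1, STAG2 or CTCF, which gives 6 groups of 2 biological replicates. Every assay took 550 ug of chromatin and 25 ug of antibody. Proliferating cells received neither drug, whereas quiescent cells had grown to confluence and then stayed in complete medium with 1 uM rosiglitazone, a PPAR gamma agonist, and 0.5 uM erlotinib, an inhibitor of the EGF receptor kinase. Quiescence, confluence and both drugs therefore cannot be told apart, and all results are from one cell line. The values measure binding of cohesin and CTCF near these genes. They do not measure expression of the genes.

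A cohesin complex carries either STAG1 or STAG2 on its ring, which extrudes chromatin loops and holds sister chromatids together. CTCF is a zinc-finger protein that binds DNA directly and halts cohesin on chromosomes, so that cohesin peaks often lie on CTCF sites. Chaf1a and Chaf1b encode the large and middle subunits of chromatin assembly factor 1, which deposits new H3 and H4 behind the replication fork. Asf1a and Asf1b encode the paired anti-silencing function proteins that hand H3-H4 dimers to the depositing complexes. Nasp protects a soluble reserve of H3 and H4, and Hira is the core of the complex that deposits the variant H3.3 outside of replication. Several of these genes, among them Chaf1a, Chaf1b, Asf1b and Nasp, are known for high expression in cycling cells.

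Promoter sequences are shown for 4 genes whose start sites differed in strength or in the place of their STAG and CTCF summits, so that these can be read against the DNA. They are RefSeq sequences of build GRCm38.p6, the assembly also named mm10, and run from 250 bases before to 50 bases after the annotated start. All 6 genes had an entry. Capitals mark matches to 4 motifs. The CCAAT box was searched as CCAAT. The cell-cycle homology element, CHR, was searched as TTTGAA. One loose form of the E2F site was searched as TTTNNCGC, where N is any base, so a match may be no E2F site. Forms with fewer T or with another ending than CGC were not searched, so a promoter without a match may still hold one. The last motif was the CTCF core without its last base. The full core motif was searched as CCA, any pair of bases, AG, any pair of bases and GGC. The Asf1b promoter (chr8:83955444-83955743, plus strand) lies inside the strongest gene-start site, beside its summits.

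Asf1b: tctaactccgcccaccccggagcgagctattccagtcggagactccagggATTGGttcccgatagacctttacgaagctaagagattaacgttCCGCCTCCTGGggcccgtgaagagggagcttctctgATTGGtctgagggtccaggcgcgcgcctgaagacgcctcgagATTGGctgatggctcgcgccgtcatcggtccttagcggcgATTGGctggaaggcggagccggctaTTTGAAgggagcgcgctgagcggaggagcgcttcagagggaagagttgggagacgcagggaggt

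The Asf1a promoter (chr10:53596711-53597010, plus strand) holds every strongest summit of its site.

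Asf1a: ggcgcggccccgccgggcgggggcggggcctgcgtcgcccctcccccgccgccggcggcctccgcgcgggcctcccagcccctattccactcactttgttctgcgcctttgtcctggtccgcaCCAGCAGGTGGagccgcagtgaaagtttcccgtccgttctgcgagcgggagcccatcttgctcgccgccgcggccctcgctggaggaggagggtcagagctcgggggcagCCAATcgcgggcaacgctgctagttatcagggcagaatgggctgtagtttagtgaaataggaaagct

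The Hira promoter (chr16:18876500-18876799, plus strand) lies under STAG summits that had no CTCF summit beside them.

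Hira: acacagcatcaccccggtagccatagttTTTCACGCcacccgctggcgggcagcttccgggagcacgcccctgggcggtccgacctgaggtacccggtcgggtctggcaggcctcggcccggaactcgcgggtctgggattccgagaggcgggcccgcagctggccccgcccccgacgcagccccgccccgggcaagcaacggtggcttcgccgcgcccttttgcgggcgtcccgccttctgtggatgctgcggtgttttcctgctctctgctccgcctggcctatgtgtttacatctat

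The Chaf1a promoter (chr17:56040166-56040465, plus strand) lies where STAG2 peaks were called in every library and CTCF peaks were not.

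Chaf1a: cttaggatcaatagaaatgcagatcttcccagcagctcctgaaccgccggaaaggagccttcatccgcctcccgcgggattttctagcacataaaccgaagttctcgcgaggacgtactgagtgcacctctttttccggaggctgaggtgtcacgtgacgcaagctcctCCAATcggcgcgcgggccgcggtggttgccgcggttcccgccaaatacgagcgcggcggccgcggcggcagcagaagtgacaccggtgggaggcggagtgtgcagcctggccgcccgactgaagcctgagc

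Both strands were searched. The full CTCF core was found in 2.43% of 32851 RefSeq mouse promoters of 300 bases and in none of the 6. Without its last base the core was found in 7.03% of promoters, and in Asf1a it read CCAGCAGGTGG from -127 to -117 bp, inside the span of the strongest summits of all 12 libraries. In Asf1b it lay on the other strand from -157 to -147 bp, between the summits and the start. This shorter search was added after the first one had been seen. TTTNNCGC (5.17% of promoters) was found in Hira, from -222 to -215 bp. TTTGAA (17.9%) was found in Asf1b, from -14 to -9 bp, and in Nasp, from -130 to -125 bp. CCAAT (37.4%) was found in Chaf1a, Asf1a, Asf1b and Nasp, with 4 copies in Asf1b, all on the other strand. The searched CHR, E2F and CCAAT motifs shared no base with the CTCF match in any of the 6. The 6 promoters were 48.3% (Nasp) to 70.3% (Chaf1b) G and C, against a median of 52.7% over all promoters.

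The deposited lists held between 34281 peaks (STAG2, quiescent replicate 2) and 71757 peaks (CTCF, quiescent replicate 2), and no sequencing depth accompanies them. The gene windows held 15 to 17 peaks in each of the 8 STAG libraries and 24, 20, 26 and 35 in CTCF proliferating replicates 1 and 2 and quiescent replicates 1 and 2. CTCF quiescent replicate 2 was thus the longest list and the one with most peaks at these genes. Among markers of the urothelial lineage, 7 of 10 had an annotated start. Of these, 4 (Upk1a, Krt8, Gata3 and Foxa1) had a peak within 1 kb of it in every library, compared with 35.4% of all genes. Krt5, Grhl3 and Upk3a had such a peak in 9, 10 and 6 libraries. The fibroblast gene Pdgfra also had one in every library, whereas Col3a1 and the leukocyte gene Ptprc had none. Peaks do not measure expression, so these counts do not check the cell type.

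Of the 44 sites, 12 (27.3%) were called in all 12 libraries, compared with 15.9% of all sites and 17.6% of the 86613 sites in the windows of all protein-coding genes. At the other end 15 sites (34.1%) were called in a single library, compared with 32.9% of all sites. By antibody, STAG1 was called in all 4 of its libraries at 12 of the 18 sites with a STAG1 peak (43.0% of all such sites in the series), STAG2 at 13 of 20 (45.3%) and CTCF at 15 of 36 (42.4%). Chaf1b and Asf1b each held 3 of the 12 shared sites, Chaf1a and Nasp 2, and Asf1a and Hira 1. Peaks in the shared sites lay at a median fold percentile of 76.9, and peaks in the other 32 sites at 28.2. The percentile gives the rank of a peak's fold enrichment within its own list, where 100 is the strongest. The medians over all sites were 75.7 and 34.0, so that the gap was not particular to these genes.

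**Figure D1:**
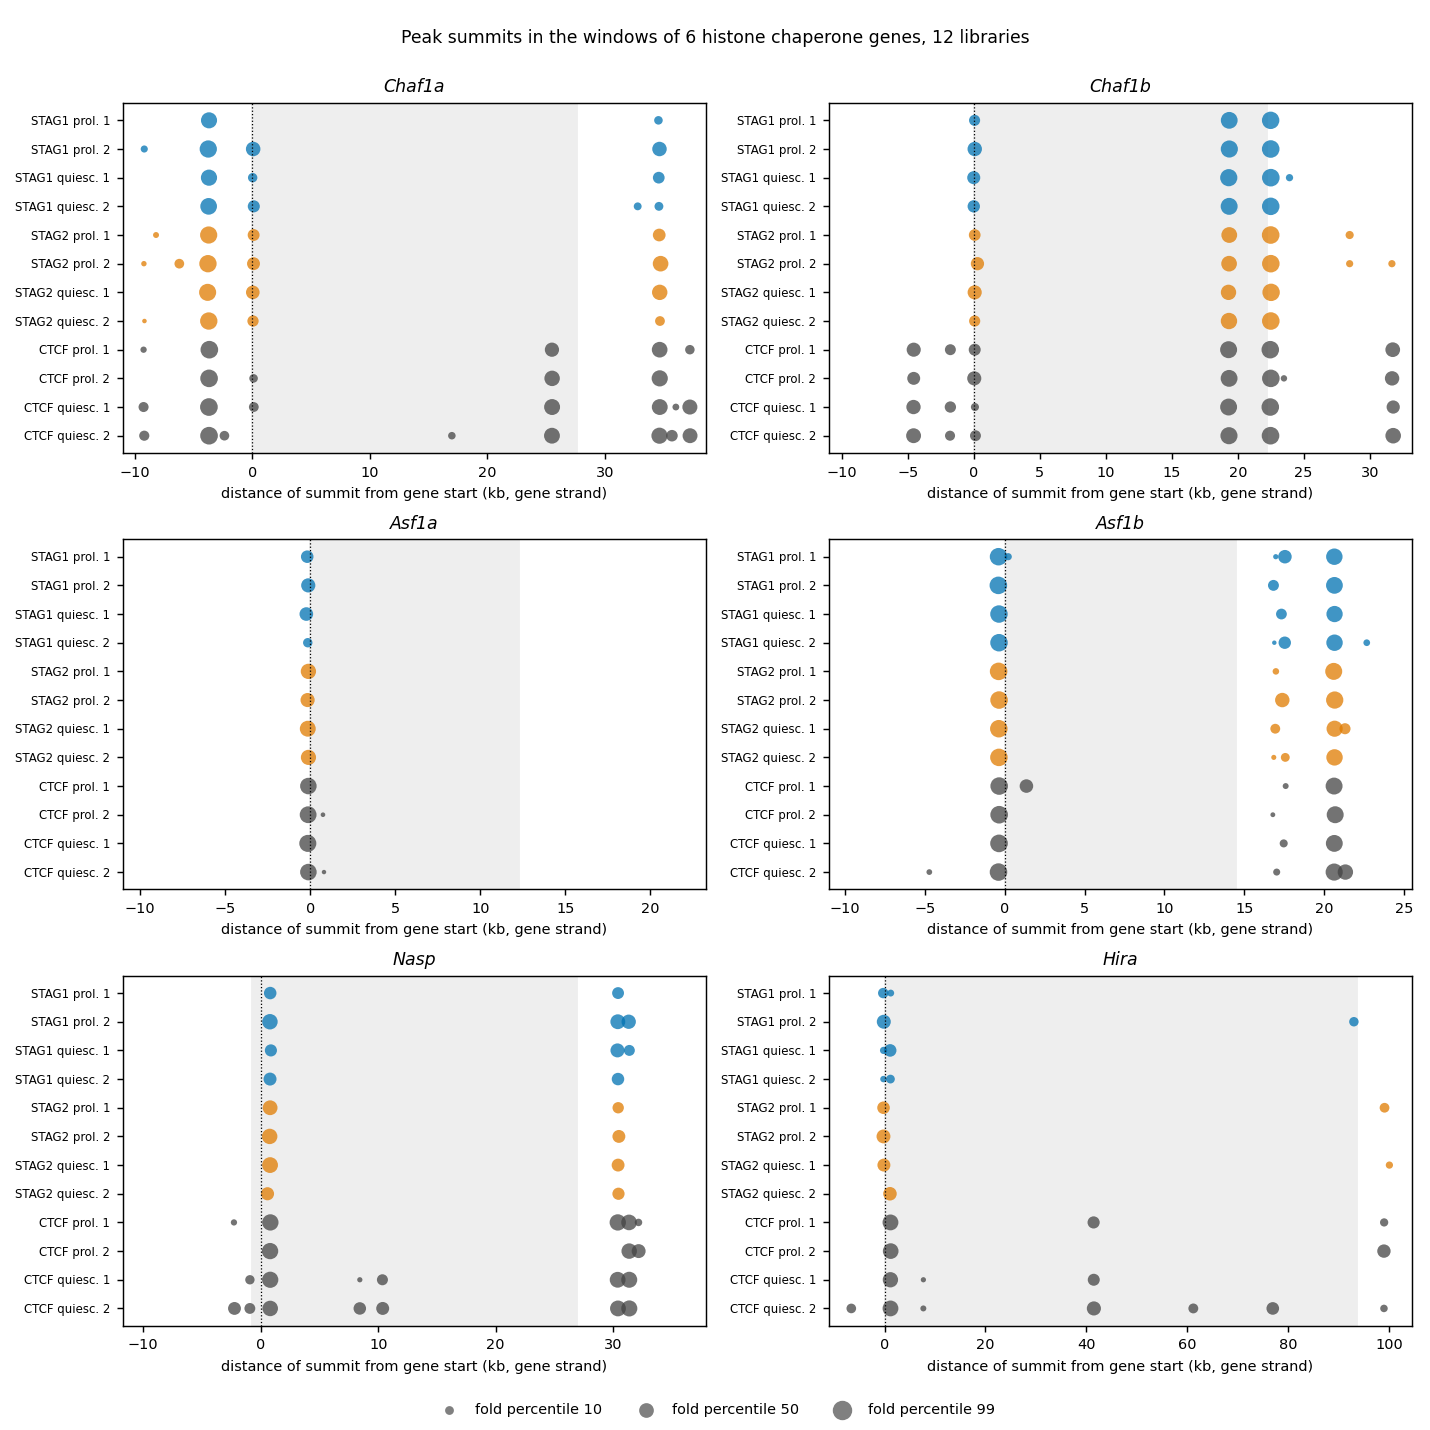
Peak summits in the 6 gene windows by distance from the gene start in kb (horizontal) and library (vertical), with grey gene spans and dot area that grows with the fold percentile within the list. Columns of dots through all 12 rows are the 12 shared sites. Asf1a has 1 such column and no other site, and dots in only the lowest 4 rows are sites called with the CTCF antibody alone.

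Asf1b had the strongest gene-start site. It spanned chr8:83954712-83956172 and its strongest summits lay from -398 to -347 bp relative to the start, between Asf1b and the neighbouring Gm10644. The fold enrichment over the authors' control was 49.2 and 53.8 for STAG1 in proliferating replicates 1 and 2, and 49.6 and 55.4 in quiescent replicates 1 and 2. For STAG2 it was 46.8 and 39.5 in proliferating and 52.3 and 45.3 in quiescent cells. For CTCF it was 56.9 and 70.8 in proliferating and 79.0 and 51.9 in quiescent cells. Within their lists these peaks ranked between the percentiles 97.33 and 99.40. Proliferating and quiescent ranges overlapped for all 3 antibodies. The window held 2 further sites of every library, both over Prkaca, which encodes the catalytic subunit of protein kinase A. Each lay at one of its annotated starts. The one at the start farther from Asf1b (chr8:83975999-83977313) had folds of 21.6 to 28.3 for STAG1 and STAG2 and of 31.5 to 35.4 for CTCF. The other, at the nearer start (chr8:83972244-83973510), was weak, with folds of 5.57 to 9.89 for STAG1, 4.17 to 9.06 for STAG2 and 3.43 to 4.94 for CTCF.

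Asf1a, the paralogue of Asf1b, lies inside the span of Mcm9, which encodes a helicase of homologous recombination, and its window held a single site (0.31 per 10 kb, compared with 0.79 to 2.52 in the other 5 windows). The site (chr10:53596381-53597912) lay at the start, with strongest summits from -225 to -100 bp. STAG1 folds were 8.20 and 9.60 in proliferating and 9.20 and 5.60 in quiescent cells. STAG2 folds were 13.6 and 8.60 in proliferating and 20.4 and 15.2 in quiescent cells. CTCF folds were 27.6 and 31.2 in proliferating and 36.8 and 25.4 in quiescent cells. The strongest CTCF peak of each library ranked at 86.40 to 92.41 of its list, above the STAG2 peaks (61.59 to 79.51) and the STAG1 peaks (23.54 to 62.04), and the 2 STAG ranges met. CTCF proliferating replicate 2 and quiescent replicate 2 each had a second, weak peak about 0.8 kb after the start in the same site.

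Chaf1b had its strong sites at the far end of the gene and not at its start. The start site (chr16:93883508-93884592, summits from -25 to +256 bp) had STAG1 folds of 6.87 and 10.2 in proliferating and 8.32 and 7.81 in quiescent cells. STAG2 folds there were 6.87 and 7.34 in proliferating and 12.4 and 7.97 in quiescent cells. CTCF folds were 7.14 and 9.89 in proliferating and 4.95 and 6.71 in quiescent cells. Over both states the fold ranges of the 3 antibodies overlapped one another. Between states the STAG1 folds overlapped and the STAG2 and CTCF folds did not, a description from 2 libraries per state. At the 3′ end, 249 to 312 bp past the last base of the gene (chr16:93905612-93907175), STAG1 folds were 45.4, 55.4, 60.9 and 56.4 in the same library order. STAG2 folds were 55.4, 39.9, 46.4 and 49.4, and CTCF folds 55.4, 64.9, 62.4 and 58.4. These peaks ranked at 96.70 to 99.27 of their lists, a range that overlapped that of the Asf1b start.

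A further Chaf1b site of every library lay inside the gene, 19.3 kb after its start (chr16:93902507-93903538). STAG1 folds were 29.9 and 32.9 in proliferating and 37.9 and 33.9 in quiescent cells. STAG2 folds were 16.0 and 12.5 in proliferating and 17.0 and 22.4 in quiescent cells. CTCF folds were 35.9, 31.9, 32.4 and 34.4. All 4 STAG1 peaks (percentiles 89.45 to 94.07) therefore ranked above all 4 STAG2 peaks (73.57 to 84.77), with CTCF at 90.06 to 93.01. Such a gap was seen at 1 of the 12 shared sites and at 11.2% of the 18250 sites of every library, so it is a description of this site. It was singled out after its values were seen. The reverse gap was seen at 0 of 12 sites, compared with 8.27%.

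Chaf1a had the weakest start of the 6 and a strong site nearby. At the start (chr17:56040147-56040893, summits from +34 to +132 bp) STAG2 peaks were called in all 4 libraries, with folds of 6.99 in both proliferating replicates and 11.0 and 7.98 in quiescent cells. STAG1 had no peak in proliferating replicate 1 and folds of 10.5 in proliferating replicate 2 and 5.49 and 7.49 in quiescent cells. CTCF was called in 2 of 4 libraries, with folds of 4.99 in proliferating replicate 2 and 5.49 in quiescent replicate 1. The strong site lay 3.7 kb upstream, at the start of Sh3gl1 (chr17:56036073-56037223), which encodes an endophilin. Its folds were 21.1 and 37.1 for STAG1 in proliferating and 20.7 and 28.5 in quiescent cells, and 32.3 and 30.2 for STAG2 in proliferating and 35.1 and 37.9 in quiescent cells. CTCF folds were 64.7 and 70.7 in proliferating and 101 and 66.4 in quiescent cells, and 101 was the highest fold at any of the 44 sites. On the far side a site of every library lay at the start of Ubxn6 (chr17:56074572-56075416), with folds of 5.44 to 17.3 for the STAG libraries and of 17.3 to 21.3 for CTCF.

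Nasp is read from the minus strand. Its start site (chr4:116626779-116627802) had strongest summits 575 to 864 bp after the annotated start of the RefSeq table. STAG1 folds were 8.14 and 13.9 in proliferating and 7.18 and 8.62 in quiescent cells. STAG2 folds were 12.0 and 11.5 in proliferating and 19.6 and 10.1 in quiescent cells, and CTCF folds 24.9, 22.5, 20.6 and 16.8. The other shared site of its window (chr4:116596304-116597963), at the starts of C530005A16Rik and Ccdc17 beyond the 3′ end of Nasp, held a pair of summits about 1 kb apart. The strongest peak of all 8 STAG libraries was on the Nasp side, at 30361 to 30482 bp from the Nasp start. The farther summit, at 31318 to 31373 bp, was called in 4 of 4 CTCF libraries and in 1 STAG1 library of each state, and in CTCF proliferating replicate 2 it was the only one.

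Hira shares its start region with Mrpl40, a mitochondrial ribosomal protein gene on its upstream side. The site (chr16:18876179-18878415) held summits on both sides of the start. Before the start, at -252 to -120 bp, lay 7 summits, all of STAG libraries, with folds of 4.40 to 9.60. After it, at +1081 to +1231 bp, lay 4 STAG summits and all 4 CTCF summits, with folds of 4.57 to 19.8. Of the STAG libraries only STAG2 quiescent replicate 2 had no summit before the start. The strongest CTCF folds were 19.8 and 16.4 in proliferating and 13.8 and 18.7 in quiescent cells, and the strongest STAG folds ran from 5.34 to 10.9. All 4 CTCF peak intervals ran across the start, so the separation holds for summits and not for covered bases.

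Taking the strongest peak of each library, the median STAG summit and the median CTCF summit at the Hira site lay 1314.5 bp apart. The gap was 948 bp at the paired Nasp site and at most 104.5 bp at the other 10 shared sites. At the Nasp site every CTCF library but proliferating replicate 2 also had a summit at 30377 to 30405 bp, among the STAG summits. The 948 bp is therefore no distance between separate STAG and CTCF positions. At the Hira site 4 STAG summits lay after the start with the CTCF summits, so the 1314.5 bp does not hold for every STAG library. Over all sites of every library the median gap was 24 bp, and 4.09% had a gap above 500 bp, a limit chosen after the Hira summits had been seen.

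**Figure D2:**
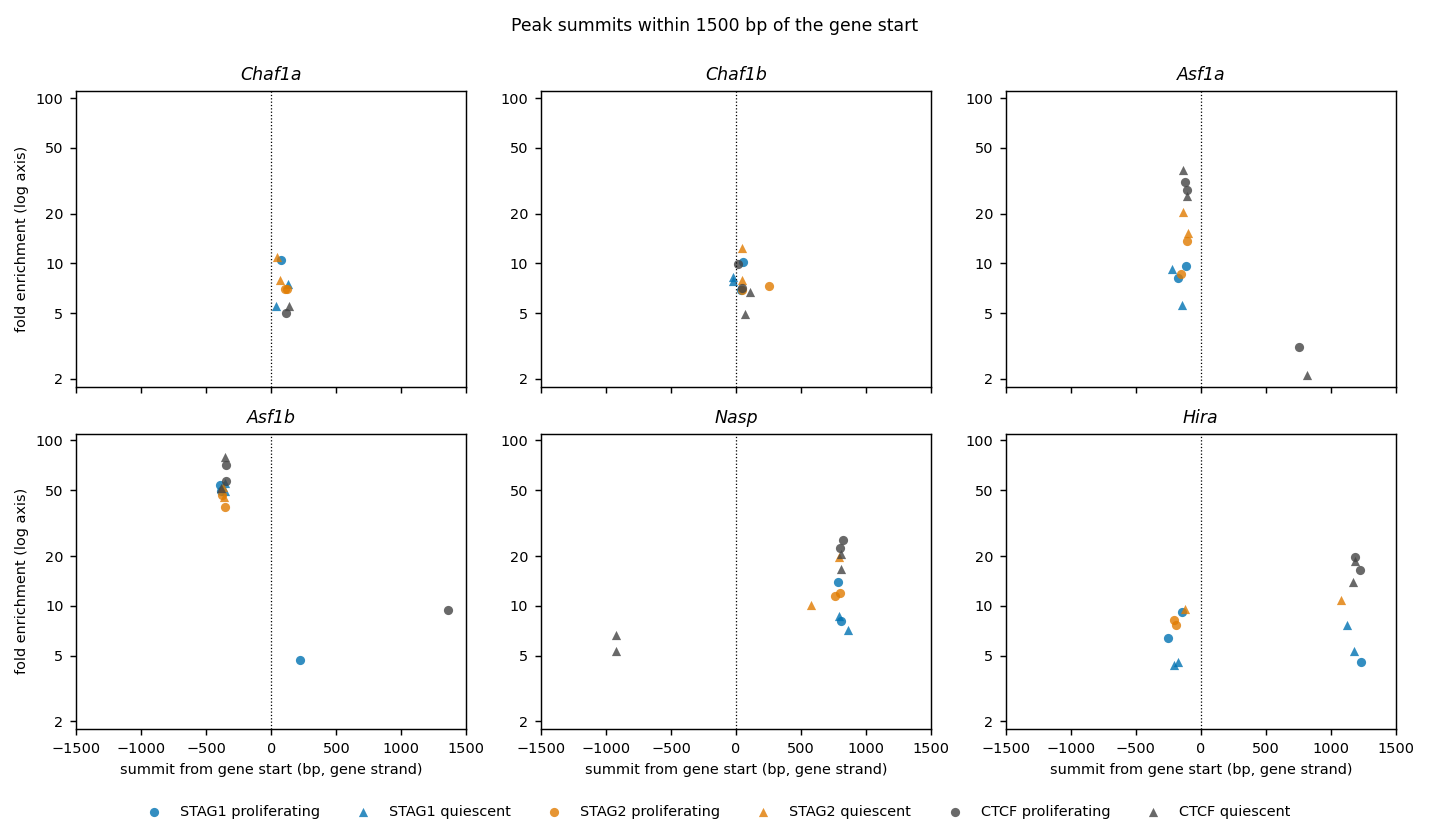
Fold enrichment (vertical, log axis) of every peak whose summit lay within 1500 bp of a gene start, against the distance of the summit from the start in bp (horizontal), by antibody (colour) and state (circles proliferating, triangles quiescent). The strongest Asf1b summit of each library sits between -398 and -347 bp at folds of 39.5 to 79.0, with a pair of weaker peaks after the start, and at Hira the summits before the start are all of STAG libraries.

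A start was counted as occupied where a peak interval overlapped the 1 kb on either side of it. By this measure STAG2 was called in both libraries at 6 of 6 genes in proliferating cells (55.0% of 17492 protein-coding genes with an annotated start) and at 6 of 6 in quiescent cells (55.2%). STAG1 was called in both at 5 of 6 in proliferating cells (48.8%), the exception being Chaf1a, and at 6 of 6 in quiescent cells (46.8%). CTCF was called in both at 5 of 6 in proliferating (48.6%) and in quiescent cells (44.4%), again without Chaf1a. At Hira the CTCF summits lay at +1171 to +1226 bp, outside the window, and their intervals reached into it. At 5 of 6 genes all 12 libraries had a peak there, compared with 35.4% of all genes. With 6 genes, these shares describe the genes listed and are no test. The Nasp start used (chr4:116627951) lies inside the gene span, whose 5′ end is at chr4:116628676. The Nasp counts depend on this choice. Over the 6 genes and 6 groups, 33 starts were occupied. The count was 29 where 1 kb around both ends of each gene span was searched instead.

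By the mean percentile of the strongest peak within 1 kb of the start the order was Asf1b at 98.19 ± 0.60 (SD, n = 12 libraries of 3 antibodies), Asf1a at 69.19 ± 20.30, Nasp at 67.85 ± 15.32, Hira at 56.54 ± 18.99, Chaf1b at 45.04 ± 14.14 and Chaf1a at 30.08 ± 22.56. Libraries without a peak entered as 0. The lowest Asf1b value (97.33) was above the highest Asf1a value (92.41). Each of the other neighbours in this order had overlapping ranges. By antibody, the CTCF mean was above both STAG means at Asf1a (88.79, against 71.48 for STAG2 and 47.31 for STAG1), at Nasp (81.49, against 68.17 and 53.89) and at Hira (77.00, against 53.27 and 39.36). At Chaf1b it was the lowest of the 3 (38.25, against 47.71 and 49.15), and so it was at Chaf1a (11.07, against 46.25 and 32.92). At Hira the CTCF summits lay more than 1 kb after the start and most of the strongest STAG summits before it. The Hira means thus set peaks at different places side by side. Percentiles of lists of different lengths were set side by side here as a description only. The strongest peak of each library was also compared at the shared sites. At 5 of the 12 all 4 of these CTCF peaks ranked above all 8 STAG peaks, compared with 18.5% of the 18250 sites. These were the sites at the starts of Asf1a, Hira, Sh3gl1, Ubxn6 and Ccdc17. At the Hira and Ccdc17 sites the strongest STAG and CTCF summits lay mostly at different places, so there the count also sets unlike places side by side.

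**Figure D3:**
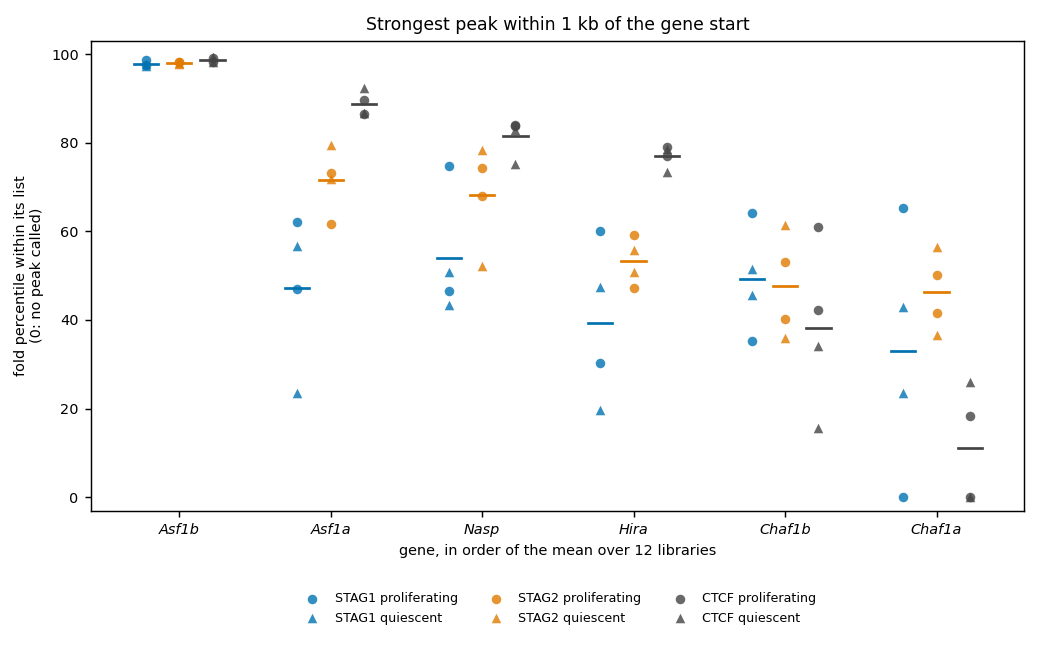
Fold percentile within its list (vertical, 0 where no peak was called) of the strongest peak whose interval overlapped the 1 kb on either side of each gene start. There is one point per library, with bars for the mean of 4 libraries per antibody. The CTCF summits at Hira lay outside this window. Asf1b lies above 97 in all 12 libraries, and at Chaf1a and Chaf1b the CTCF mean is the lowest of the 3.

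The genes whose start percentiles were most like those of each member over the 12 libraries were found by the mean absolute difference in percentile points. For Asf1b they were Dhx8 (0.50) and Wdr38 (0.62), and for Asf1a they were Eef2kmt (4.62) and Coro1c (5.02). For Nasp they were 0610030E20Rik (4.50) and Sema4g (4.66), and for Chaf1b they were Map6d1 (6.68) and Etfdh (6.75). For Chaf1a they were Snx8 (6.36) and Psme3 (6.61). For Hira they were Mrpl40 (1.00), which shares its start site, and Gstp1 (6.11).

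STAG and CTCF were compared over the same sites. In proliferating cells all 12 sites with STAG1 in both libraries also had CTCF in both (79.7% of all such sites in the series), as did 12 of the 14 sites with STAG2 in both (71.9%). In quiescent cells it was 12 of 13 for STAG1 (81.3%) and 12 of 13 for STAG2 (74.2%). The site short of this count in quiescent cells was the Chaf1a start, where CTCF was called in 1 library. A site with STAG2 in both libraries and CTCF in neither was found once in proliferating cells (18.3% of all such sites), 28.5 kb after the Chaf1b start (chr16:93912104-93912657), with folds of 4.84 and 4.00. No peak of any other library lay there. In quiescent cells 0 of 13 sites of either STAG protein lacked CTCF in both libraries (8.96% for STAG1 and 15.6% for STAG2), and in proliferating cells 0 of 12 did for STAG1 (10.7%). These counts depend on how peaks are merged. Where summits within 200 bp were joined instead, the sites lacking CTCF over both states were 2 for STAG1 and 2 for STAG2. The site behind Chaf1b was also the 1 site of 20 with STAG2 and without STAG1 in proliferating cells (3.09%), and 0 of 18 sites were of this kind in quiescent cells (4.65%). STAG1 without STAG2 was found at 0 of 20 sites in proliferating (2.24%) and 0 of 18 in quiescent cells (4.16%).

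Sites with CTCF and without STAG were counted in the same way. Of the 15 sites called in every CTCF library, 2 had no STAG peak in any library (19.4% of all such sites). The count was 5 without CTCF proliferating replicate 2 and 0 with the 20000 strongest peaks of each list. One lay inside Chaf1a, 25.5 kb after its start (chr17:56065618-56066246), where CTCF folds were 11.0 to 19.0. The other lay 4.6 kb before Chaf1b (chr16:93879018-93879612), where they were 7.93 to 14.0. Another site, 31.7 kb after the Chaf1b start (chr16:93915346-93916013), had CTCF folds of 8.11 to 17.1 and 1 STAG peak, in STAG2 proliferating replicate 2, with a fold of 4.11. In quiescent cells 11 of the 24 sites with CTCF in both libraries had no STAG peak in that state (37.3%), and in proliferating cells 3 of 17 did (24.5%).

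The comparison of states asked which sites differed between proliferating and quiescent cells. A site was counted as lost where both proliferating libraries of an antibody had a peak and neither quiescent library did, and as gained in the reverse case. Of the 18 sites with a STAG1 peak, 0 were lost (4.14% of all sites with a STAG1 peak) and 0 were gained (0.605%). Of the 20 with a STAG2 peak, 1 was lost (5.93%), the weak site behind Chaf1b named above, and 0 were gained (0.948%). Of the 36 with a CTCF peak, 1 was lost (2.33%) and 5 were gained (4.05%). With STAG2 proliferating replicate 1 or replicate 2 left out, 3 STAG2 sites were lost. Without STAG1 proliferating replicate 1 the lost STAG1 sites were 2, and without STAG1 quiescent replicate 1 the gained STAG1 sites were 2. So few sites allow no more than a count beside these background shares.

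The 5 gained CTCF sites were 13.9% of 36, compared with 3.98% in the windows of all protein-coding genes, and 3 of them were at Nasp. One had its summits at -926 and -922 bp from the Nasp start (chr4:116628625-116629160), with folds of 5.33 in quiescent replicate 1 and 6.67 in replicate 2. A pair lay in the Nasp gene body, 8.4 and 10.4 kb after the start (chr4:116619229-116619762 and chr4:116617352-116617871), with folds of 3.67 and 8.34 and of 6.04 and 8.98. The fourth was in Hira, 7.7 kb after its start (chr16:18884204-18884698, folds 3.67 and 4.33), and the fifth over Ubxn6 beside Chaf1a (chr17:56075938-56076779, folds 4.45 and 7.30). All 10 peaks ranked at or below the percentile 50.59 of their lists. No STAG library had a peak at any of the 5. With a −log10 q-value of at least 5 required of each peak, 2 of the 5 were left, both at Nasp, or 0 where each list was cut to its 20000 strongest peaks. Without CTCF proliferating replicate 1 the count was 9, and without CTCF quiescent replicate 1 it was 11. The lost CTCF site, beside Ccdc17 (chr4:116595503-116596013), had folds of 4.67 and 9.48.

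The number of peaks per window was tested for each of 18377 protein-coding genes with a peak in any library. Between states (quiescent minus proliferating, averaged over antibodies, two-sided exact test permuting the states of each antibody's libraries) 0 genes passed a Benjamini-Hochberg adjusted p of 0.05, and 421 (2.29%) had an unadjusted p under 0.05. None of the 6 was among these. The differences were +0.83 peaks for Chaf1a (exact p = 0.370), +0.83 for Nasp (exact p = 0.33), +0.83 for Hira (exact p = 0.611) and +0.50 for Asf1b (exact p = 0.528). They were -0.33 for Chaf1b (exact p = 0.667) and 0 for Asf1a (exact p = 1.0). The adjusted p was 1.0 for each of the 6. The smallest p that the design allows is 0.00926. After adjustment over 18377 genes a call was possible only if very many genes came near it. The 0 calls therefore do not show that peak numbers stayed the same.

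STAG libraries had fewer peaks than CTCF libraries in the windows of Chaf1b and Nasp. Chaf1b had 6 peaks in each CTCF library and 3, 3, 4 and 3 in the STAG1 and 4, 5, 3 and 3 in the STAG2 libraries (proliferating replicates 1 and 2, then quiescent), so the groups did not overlap. The STAG minus CTCF difference was -2.50 peaks (exact two-sided permutation of the antibody class within state, adjusted p = 0.0251). Nasp had 5, 3, 6 and 7 CTCF peaks and 2 or 3 in every STAG library, with an overlap at 3, and a difference of -3.0 (adjusted p = 0.0399 in the same exact test). Over all genes 22.3% passed (38.7% at an unadjusted p under 0.05), 21.5% with fewer STAG peaks and 0.784% with more, so that these 2 calls of 6 are near the background. Every STAG list was shorter than every CTCF list, the longest STAG list holding 50468 peaks and the shortest CTCF list 51835.

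Counts were therefore also set against the length of each list. Per 10000 peaks of a list 21.8% of genes passed, and the share of calls with fewer STAG peaks was 52.9% instead of 96.5%. Chaf1b was then not called (adjusted p = 0.275), whereas Nasp was (adjusted p = 0.0408, exact test). With any 1 of the 4 CTCF libraries left out no gene passed, where the smallest exact p was 0.0133 and 75 arrangements were left. The adjusted p of Chaf1b was then 0.0582 to 0.0709. Nasp also missed the threshold without any 1 of the STAG libraries except STAG1 proliferating replicate 2. Neither gene passed where replicate numbers were kept as blocks in the exact test (adjusted p = 0.0588 for Chaf1b and 0.0857 for Nasp).

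The other genes did not pass this test. Hira had 3, 2, 3 and 7 CTCF peaks and 1 or 2 in the STAG libraries (-2.00, exact test, adjusted p = 0.0617). Chaf1a had 5, 4, 7 and 8 CTCF peaks and 2 to 5 in the STAG libraries (-2.38, exact test, adjusted p = 0.0895). Asf1a had 1 or 2 CTCF peaks and 1 in every STAG library (-0.50, exact test, adjusted p = 0.225). Asf1b had 3 to 5 with every antibody (0.00, exact test, adjusted p = 1.0).

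**Figure D4:**
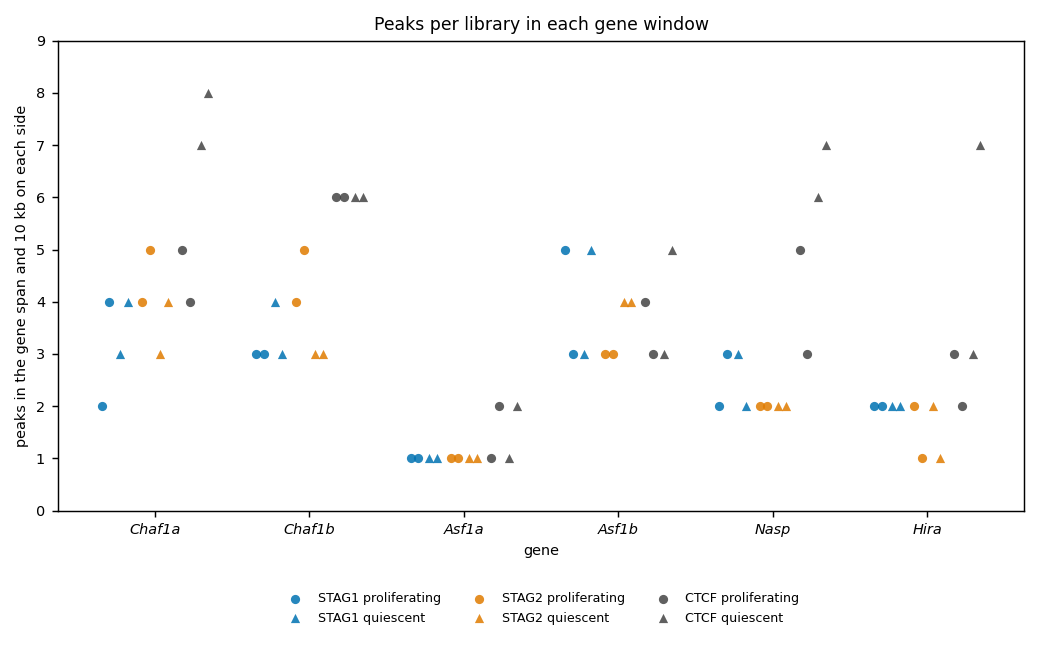
Number of peaks (vertical) in the span and 10 kb flanks of each gene (horizontal), one point per library, circles for proliferating and triangles for quiescent cells. The CTCF points of Chaf1b lie at 6 above all STAG points, and Asf1b points lie between 3 and 5 for all 3 antibodies.

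Other histone chaperones and their partners were listed by name, and 24 of 27 had an annotated start. STAG2 was called in both libraries at the start of 24 of 24 in proliferating (55.0% of all genes) and in quiescent cells (55.2%). STAG1 was called so at 19 (48.8%) and 16 (46.8%), and CTCF at 20 (48.6%) and 16 (44.4%). As over all genes, STAG2 had the highest share in both states. At 11 starts, compared with 35.4% of all genes, all 12 libraries had a peak: Cdan1 and Ipo4, whose proteins handle ASF1-bound histones, Dnajc9, Set, Nap1l1, Spty2d1, Dek, the HIRA partners Ubn1, Ubn2 and Cabin1, and Hjurp, the chaperone of the centromeric H3 variant. The highest mean percentiles among them were 86.93 for Spty2d1, 81.54 for Hjurp and 77.40 for Nap1l1, all below the 98.19 of Asf1b. At Daxx, which places H3.3 with ATRX, STAG1 was called in both proliferating and in neither quiescent library, while STAG2 and CTCF were called in all 4 libraries each. Daxx was the only one of the 24 with such a change for any antibody. Of all sites with a STAG1 peak 4.14% were lost in this way, a share of sites and not of starts, so this call is a description. None of the 24 lacked a peak in every library.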

How the data were processed

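The data are 12 lists of ChIP-seq peaks (STAG1, STAG2 and CTCF, each in proliferating and quiescent NU1 cells, n = 2). Per the submitters' processing notes, bcl2fastq, BWA, Picard, MACS2 and HOMER were used with build mm10. Versions are not given in the sources used here. Lists were deposited per library, and in them the authors give each peak's fold (a ratio over a control), its q-value and p-value as −log10, and the offset of the summit. Peaks are named after an input, and the control sample is titled input but has IgG as its antibody label. That sample was not analysed here, so the kind of control behind the folds is not settled. Fold values are the authors' and served only to describe and rank peaks within a list. The lists hold no read counts, so depth is unknown, and p-values measure only the spread between libraries.

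Peaks overlapping by at least 1 bp were merged into sites with Python 3.11.15, pandas 2.3.3 and numpy 2.4.6, and figures drawn with matplotlib 3.10.9. Gene spans and starts came from RefSeq tables of GRCm38.p6, which give strand but no exons. Of 21900 protein-coding genes 17492 had a start. The permutation tests were tested on simulated data. The members and gene lists were chosen with earlier results of these data known. All 6 members were named. Other chaperones were named where all or none of the libraries had a peak at the start or where both libraries of only one state did, and 2 genes per member were named for likeness.

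Alternatives were a −log10 q-value minimum of 5, the 20000 strongest peaks per list, flanks of 5 and 20 kb, a start window of 2 kb, summits within 200 bp, counts per 10000 peaks, other gene filters, a replicate block and leaving out each library. Searching both gene ends, the shorter CTCF core and the summit comparisons were added after the data had been seen.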

Additional observations from a re-analysis of the deposited data

How the results depend on the processing

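Of the main counts under all settings, 114 values stayed within 1.5 times the value reported and 25 did not. The quiescent minus proliferating peak number, which passed in none of the 6 genes, turned from -0.33 to +0.67 (20000 peaks), +0.17 (5 kb flanks) and +0.025 (per 10000 peaks) for Chaf1b, and from +0.50 to -0.17 (20000 peaks) for Asf1b. With 20000 peaks per list the 44 sites became 17, the 12 sites of every library 5, the 33 occupied gene starts (over 6 genes and 6 groups) 20, and the 48 STAG sites with CTCF (over both proteins and states) 26. None of the 7 lost or gained sites was left, and 1 other site, gained for STAG2, was called. The 2 CTCF sites without STAG became 0, the 1 site with only one STAG protein 0, and the 4098 genes that differed between STAG and CTCF 1508, with 55.4% of them lower in STAG. The 7 lost or gained sites became 4 with a −log10 q-value of at least 5 and 4 with 5 kb flanks, where the site with only one STAG protein was 0. With summits within 200 bp joined, the 44 sites became 51, the 12 sites of every library 9 and the 48 STAG sites with CTCF 39. The CTCF sites without STAG were 2 to 5 with each library left out. Leaving out each library gave 7 to 13 lost or gained sites, 1 to 3 sites with only one STAG protein, 38 to 44 sites, 33 to 34 occupied starts and 12 sites of every library. The difference between STAG and CTCF was called at 0 to 3701 genes, and at 0 without any one CTCF library (5255 to 6061 with an unadjusted exact p under 0.05). The state test called 0 genes under every setting, but it could call a gene only where very many genes came near its smallest p. The sites left in every library with 20000 peaks were those at the starts of Sh3gl1 and Asf1b, the farther Prkaca start, and both strong sites of Chaf1b. Adjusted p-values of the exact test ran from 0.0226 to 1.0 for Chaf1b and from 0.0330 to 0.110 for Nasp.

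Replicate numbers were not shown to pair libraries: same-numbered deviations correlated between -0.076 and 0.055 across states, and between antibodies from 0.102 to 0.245 in proliferating and from 0.033 to 0.105 in quiescent cells. All correlations between antibodies were positive, so pairing within a state is not settled. With the replicate block, 0 genes passed in either exact test (6849 unadjusted for STAG against CTCF), with adjusted p-values of 0.0588 for Chaf1b and 0.0857 for Nasp. The cause of the other changes was not tested.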
